A study of Mus musculus with 4 samples.

Results

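The genes described here are the replication-dependent histone cluster genes of the mouse: every protein-coding gene whose symbol in the GENCODE M21 annotation starts with Hist1h, Hist2h, Hist3h or Hist4h. There are 67 of them, 6 coding for H1, 18 for H2A, 18 for H2B, 12 for H3 and 13 for H4. Chromosome 13 carries 54 of them and chromosome 3 carries 10, chromosome 11 carries 2 (Hist3h2a and Hist3h2ba), and Hist4h4 is alone on chromosome 6. Of the 67 genes, 59 were listed in the count tables of both cell populations, out of 37140 genes that the tables share. A further 5 H3 genes (Hist1h3d, Hist1h3f, Hist1h3g, Hist1h3h and Hist1h3i) were listed only for CD41low/CD9low HSCs, and 3 H2B genes (Hist1h2bh, Hist1h2bm and Hist2h2bb) in neither table.

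RNA was sequenced from hematopoietic stem cells (HSCs) sorted from the tibiae, femora and humeri of C57Bl6 mice, with 1 library for each of 4 groups. The first pair of libraries, WT and KO, came from cells sorted as Lin- cKit+ Sca1+ Cd48- CD150+ in the methods, called HSCs below. The second pair came from HSCs sorted as CD41low CD9low. The results of the study name the first population CD41+/CD9+ HSCs, whereas its methods give no CD41 or CD9 gate for it. The first pair may therefore be all HSCs or only those positive for CD41 and CD9. The KO group was Gfi1b fl/fl with Rosa-Cre (5 mice pooled), and the WT group was Gfi1b wt/fl with Rosa-Cre (10 mice pooled) in the methods, whereas the series design speaks of Gfi1b flox/flox mice with or without ROSA-Cre. All mice received tamoxifen, given as 2 weeks before the sort in one part of the methods and as day 10 in another, so both groups carried a floxed allele and, by the methods, the Cre. Cre driven from Rosa26 is not restricted to blood cells, pooling leaves no animal-level replicates, and the age of the mice is not given in the sources used here. The comparisons concern what loss of Gfi1b, a transcriptional repressor of blood cells, does to RNA levels in each population.

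Nucleosomes wrap DNA around a core of H2A, H2B, H3 and H4, and the linker histone H1 sits where the DNA enters and leaves. Cells make the bulk of these proteins during S phase from the clustered genes, which mostly lack introns. Their mRNAs normally end without a poly(A) tail: the stem-loop binding protein Slbp holds a hairpin just after the stop codon, U7 snRNP guides the cut, and the mature mRNA is destroyed when replication stops. Several cluster genes also make longer transcripts with a conventional poly(A) tail in cells that leave the cell cycle.

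The hairpin is shown first because it defines the class and because its letters separate the H4 genes from the rest. It was sought over the whole of each annotated transcript, coding sequence included. The pattern was a stem of 6 bases starting with gg, a loop of 4 bases starting with t and holding no g, and the perfect complement of the stem. It was present in 46 of the 67 genes (68.7%) and in 201 of 21884 other protein-coding genes (0.918%). In H4 it was found in 12 of 13 genes. Of the 21 genes without a match, 15 have annotated transcripts that end within 2 bases of the stop codon, where no downstream sequence is annotated. Below, capitals mark the stem and loop, lower case the 5 flanking bases on each side, written as DNA from the GENCODE M21 transcripts. The examples take 1 gene of high level from each type and, in Hist1h4j, a second H4 stem.
Hist1h1c: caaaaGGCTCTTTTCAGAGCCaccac
Hist1h2ab: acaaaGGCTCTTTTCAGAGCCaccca
Hist1h2bb: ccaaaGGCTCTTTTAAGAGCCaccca
Hist1h3a: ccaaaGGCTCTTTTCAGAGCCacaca
Hist1h4c: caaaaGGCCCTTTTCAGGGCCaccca
Hist1h4j: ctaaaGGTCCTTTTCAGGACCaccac
The form shared by Hist1h1c, Hist1h2ab and Hist1h3a occurred in 3 H1, 10 H2A, 8 H2B and 5 H3 genes and in no H4 gene. The form of Hist1h4c occurred in 7 H4 genes and in no gene of another type. The form of Hist1h4j occurred in 2 H4 genes, and that of Hist1h2bb in 1 H1, 2 H2B and 3 H3 genes.

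How much of these mRNAs is seen depends on the libraries and the counting. The TruSeq Stranded mRNA kit selects poly(A) RNA, so counts of hairpin-ended mRNAs come from what passed that selection, and whether it was equal in the 4 libraries was not tested. Members resemble each other: 32 of the 67 have fewer than 50% of their 50-base words to themselves among all annotated transcripts, among them 12 H2A, 8 H2B, 8 H3 and 4 H4 genes, and reads aligned at more than 1 place amounted to 96.21 to 121.6 per 100 gene counts and were assigned to no gene. All 18 H2A genes overlap an annotated gene on the other strand in GENCODE M21, against 1 of 13 H4 genes, and whether strand was used in counting is not given in the sources used here. Counts were given for 38293 genes in HSCs and for 41214 in CD41low/CD9low HSCs, which points to separate annotation releases, so cell population, batch and release cannot be told apart.

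The libraries held 50781007 (WT) and 41690708 (KO) gene counts in HSCs and 12732079 (WT) and 19123185 (KO) in CD41low/CD9low HSCs. Gfi1b itself was listed at 182 CPM (counts scaled to a common total of gene counts) in the library labelled WT and 1197 in the library labelled KO of the HSCs, and at 48.0 and 509.4 in CD41low/CD9low HSCs, 6.66- and 10.6-fold higher in the KO-labelled libraries on size factors. The sample titles name Gfi1, whereas the genotype label of each sample and the methods name Gfi1b. Gene-level counts include exons outside the floxed exons 2 to 4, so they do not check the deletion, and WT and KO below are the names of the labels. Of 10 HSC markers, all were detected in every library, including Kit, Procr and Mecom. All 8 megakaryocyte markers, CD41 (Itga2b) and Cd9 among them, were lower in the CD41low/CD9low pair. The 8 granulocyte markers summed to 404 and 492 CPM in WT and KO HSCs, 1080 CPM in WT and 277 CPM in KO CD41low/CD9low HSCs. The 5 erythroid markers summed to 17.3 to 50.3 CPM, the 4 lymphoid markers to 0.209 to 2.17 CPM, with Cd3e and Cd79a at 0 in both CD41low/CD9low libraries, and the 3 CD48+ progenitor markers to 175 to 475.6 CPM. The part of these cells in the histone results was not tested.

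The 59 shared genes took 4798 CPM in WT HSCs, 3933 CPM in KO HSCs, 5656 CPM in WT CD41low/CD9low HSCs and 4773 CPM in KO CD41low/CD9low HSCs. The KO-labelled library was thus the lower one in each pair, and the CD41low/CD9low pair lay above the HSC pair. H4 carried most of the difference between the pairs. The 13 H4 genes summed to 1055 and 965 CPM in WT and KO HSCs and to 2209 and 1852 CPM in WT and KO CD41low/CD9low HSCs. Their share of all member counts was 21.98% and 24.54% in the HSC libraries and 39.05% and 38.81% in the CD41low/CD9low libraries. Linker histone H1, from 6 genes, went the other way, with 1823 and 1447 CPM in HSCs and 1530 and 1316 CPM in CD41low/CD9low HSCs. The ratio of CD41low/CD9low to HSC in WT and KO was 2.09 and 1.92 for H4, 0.839 and 0.9095 for H1, 0.891 and 0.831 for H2A, and 1.08 and 1.27 for H3. For H2B it was 1.02 and 1.12 on CPM, and its direction in WT turned with the scaling, to 0.978 on size factors of the 4 libraries. In sorted bulk RNA, fewer cells in S phase and less histone mRNA per cell cannot be told apart.

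**Figure D1:**
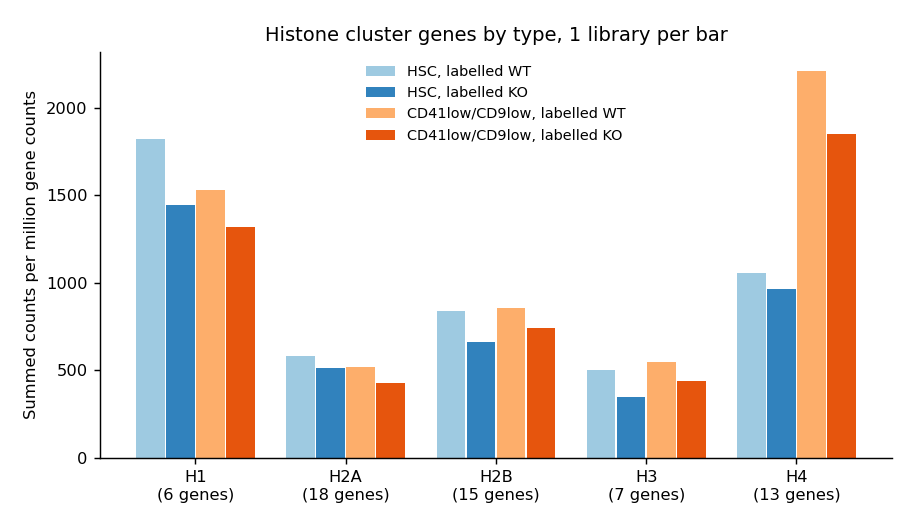
Summed CPM of the histone cluster genes listed for both populations, by histone type on the horizontal axis, with 1 bar for each library and no replicate error. The H4 bars of the CD41low/CD9low libraries, 2209 and 1852 CPM, stand above the H4 bars of the HSC libraries, 1055 and 965 CPM.

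Per kilobase of annotated exon, which allows genes to be compared, the highest mean level over the 4 libraries was that of Hist1h4h at 512 CPM per kilobase, followed by the H1 gene Hist1h1a at 453.5 and the H2B gene Hist1h2bb at 442.5. A mean of 100 CPM per kilobase or more was reached by 21 of the 59 genes, of which 3 were H1, 3 H2A, 4 H2B, 4 H3 and 7 H4. At the other end, 4 genes were listed at 0 in all libraries (Hist1h2ap, Hist2h2aa2, Hist2h3c1 and Hist1h2ba) and 3 stayed under 10 counts in each library (Hist1h2ao, Hist1h2bq and Hist1h2aa). Hist1h2ba and Hist1h2aa are testis histones. The other 5 have 6.93% or less of their 50-base words to themselves, with 0% in Hist2h2aa2 and Hist2h3c1. The exon lengths are those of GENCODE M21, which may differ from those of the release the counts used.

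Among the H1 genes, whose products compact linker DNA, Hist1h1c had the most counts, with 569 and 492 CPM in WT and KO HSCs and 486 and 426 CPM in WT and KO CD41low/CD9low HSCs. Hist1h1a had 437 and 272 CPM in HSCs and 337.5 and 297 CPM in CD41low/CD9low HSCs. Hist1h1b had 238 and 160 CPM and then 186 and 143 CPM. In all 3 genes the KO-labelled library was lower in both populations. Hist1h1e, whose annotated 3′UTR runs to 1209 bases, was higher in KO HSCs, with 170 CPM in WT and 198 CPM in KO, and had 146 and 145 CPM in WT and KO CD41low/CD9low HSCs. The testis-specific Hist1h1t stayed at or under 1.01 CPM in every library, with 44, 42, 0 and 10 counts.

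For H2A the best measured genes by length were Hist1h2ak, with 106 and 85.3 CPM in WT and KO HSCs and 68.9 and 58.8 CPM in WT and KO CD41low/CD9low HSCs, and Hist1h2ab, with 96.75, 66.6, 104.5 and 80.0 CPM in the same order. Hist2h2ac, of the chromosome 3 cluster, had 62.0, 53.5, 82.9 and 81.2 CPM. In H2B, Hist1h2bb had 256, 177, 258 and 208 CPM, Hist1h2bk 86.9, 56.4, 91.3 and 71.1 CPM, and Hist1h2bg 112, 110.4, 82.2 and 79.0 CPM. Hist1h2bg was thus almost level between the genotypes where Hist1h2bb and Hist1h2bk were lower in the KO-labelled library. In H3, Hist1h3e had 195, 128, 180.3 and 163 CPM, Hist1h3a 90.9, 57.8, 109.8 and 76.9 CPM, and Hist1h3c 109, 80.7, 94.2 and 71.75 CPM. Of the H3 genes counted only for CD41low/CD9low HSCs, Hist1h3f was the largest with 235 CPM in WT and 199 CPM in KO.

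In H4, whose product is among the most conserved of all proteins, every gene was at a higher CPM in CD41low/CD9low HSCs than in HSCs in both genotypes, with ratios from 1.27 to 3.535. Hist1h4j had 35.6 and 30.2 CPM in WT and KO HSCs and 125.7 and 107 CPM in WT and KO CD41low/CD9low HSCs. Hist1h4k had 32.1 and 26.1 CPM and then 108 and 90.6 CPM. Both genes were more than 3-fold higher in the second pair, for WT and for KO alike. Hist1h4c had 98.5 and 123 CPM in HSCs and 324 and 281 CPM in CD41low/CD9low HSCs. Hist1h4h had 159 and 150.4 CPM and then 348 and 306.5 CPM. Hist1h4d, the H4 gene with the most counts, had 258 and 251 CPM and then 482 and 423.5 CPM, and Hist1h4f had 97.1 and 87.65 CPM and then 184 and 167 CPM. In these 6 genes the libraries of the 2 pairs did not overlap. Over all H4 genes, 12 of 13 had both CD41low/CD9low libraries above both HSC libraries and none had both below, beside 29.3% and 29.0% of all genes tested. At the lower end, Hist1h4m had 17.9 and 12.3 CPM in HSCs and 22.9 and 16.6 CPM in CD41low/CD9low HSCs, so that its KO-labelled CD41low/CD9low library lay under the WT HSC library.

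To compare the pairs, 1 edgeR quasi-likelihood model took the 4 libraries together, with population and genotype as terms, over 16262 shared genes, which leaves 1 residual degree of freedom. Of the 67 histone genes 52 entered it, 8 being absent from a table and 7 having under 10 counts in each library. In the CD41low/CD9low pair 16 histone genes were higher and 7 were lower, where 9.11% of all genes tested were called higher and 13.7% lower. Of the 13 H4 genes 12 were called higher and none lower, with a median log2 difference of 0.86, beside a median of -0.07 over all genes tested. The difference between the pairs also went with exon length: the median of other protein-coding genes was 0.29 for exons of up to 600 bases (7 of 62 higher, none lower) and -0.19 above 5000 bases (413 of 5814 higher, 1385 lower). The 7 H4 genes of up to 600 bases had a median of 0.86 and the 6 longer ones 0.84, whereas the 19 tested histone genes of other types with exons of up to 600 bases had a median of 0.13 (3 higher, 3 lower). The part of exon length in the H4 result was not tested. The calls held 9 of the 9 H4 genes with at least 50% of their 50-base words to themselves and 3 of the other 4. The count of H4 genes called higher was 11 or 12 under each other scaling, filter and tool tried, and the gene lost was Hist4h4 (log2 difference 0.39 ± 0.15 (SE), adjusted p = 0.044), with adjusted p from 0.012 to 0.075 over these settings. Hist1h4m was not called (0.33 ± 0.27, adjusted p = 0.45).

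The largest log2 differences among the H4 genes were 1.76 ± 0.17 in Hist1h4j (adjusted p = 1.3e-22), 1.71 ± 0.17 in Hist1h4k (adjusted p = 1.2e-20) and 1.39 ± 0.15 in Hist1h4c (adjusted p = 1.6e-17). Outside H4, 4 of the 39 histone genes tested were higher, near the 9.11% of all genes tested that were called higher. Hist2h3b, an H3 gene of the chromosome 3 cluster, went from 29.3 and 24.95 CPM in WT and KO HSCs to 61.5 and 58.2 CPM in WT and KO CD41low/CD9low HSCs (log2 difference 1.08 ± 0.19, adjusted p = 3.2e-07). Hist2h2ac was higher by 0.45 ± 0.17 (adjusted p = 0.036) and Hist2h2ab by 0.91 ± 0.36 (adjusted p = 0.046). Hist2h2ab had 6.32, 6.16, 18.1 and 8.31 CPM, so its WT CD41low/CD9low library stood apart. Hist3h2ba, with 4.84, 3.84, 5.81 and 17.9 CPM, was higher by 1.198 ± 0.41 (adjusted p = 0.021), with a ratio of 1.2 between the WT libraries and 4.66 between the KO-labelled ones. The calls of Hist2h2ac, Hist2h2ab and Hist3h2ba were lost with DESeq2 (adjusted p = 0.13, 0.22 and 0.17). They were also lost under some other settings of the edgeR fit. Hist2h2ab was lost with DESeq2 size factors, no filter and a minimum of 50 counts (adjusted p = 0.068, 0.081 and 0.083). Hist3h2ba was lost with DESeq2 size factors and a minimum of 50 counts (adjusted p = 0.05003 and 0.080), and Hist2h2ac with no filter (adjusted p = 0.059).

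The 7 genes called lower in the CD41low/CD9low pair were 5 H2A genes, 1 H2B gene and 1 H1 gene. Hist1h2ah fell from 18.5 and 14.9 CPM to 5.18 and 5.18 CPM (log2 difference -1.74 ± 0.34, adjusted p = 5.5e-06) and Hist1h2ai from 43.3 and 37.0 CPM to 15.2 and 14.9 CPM (-1.47 ± 0.23, adjusted p = 1.4e-08). These copies have 9.27% and 9.88% of their 50-base words to themselves. Hist3h2a (20.9, 25.1, 10.8 and 7.16 CPM, -1.44 ± 0.29, adjusted p = 1.2e-05) and Hist1h2ac (83.5, 116, 58.1 and 48.3 CPM, -0.96 ± 0.17, adjusted p = 3.7e-07) have annotated 3′UTRs of 1700 and 2058 bases, and Hist1h2ak was lower by a log2 difference of -0.64 ± 0.17 (adjusted p = 0.0010). Hist1h2bg (-0.53 ± 0.16, adjusted p = 0.0077) and Hist1h1e (-0.40 ± 0.15, adjusted p = 0.042) completed the set. The call of Hist1h1e was lost under 4 of the 5 other settings. Of the 14 H2A genes tested, 2 were thus called higher and 5 lower, where 9.11% and 13.7% of all genes tested were. With DESeq2 and with no filter, 0 H2A genes were called higher, whereas the count of 5 lower held under every setting.

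**Figure D2:**
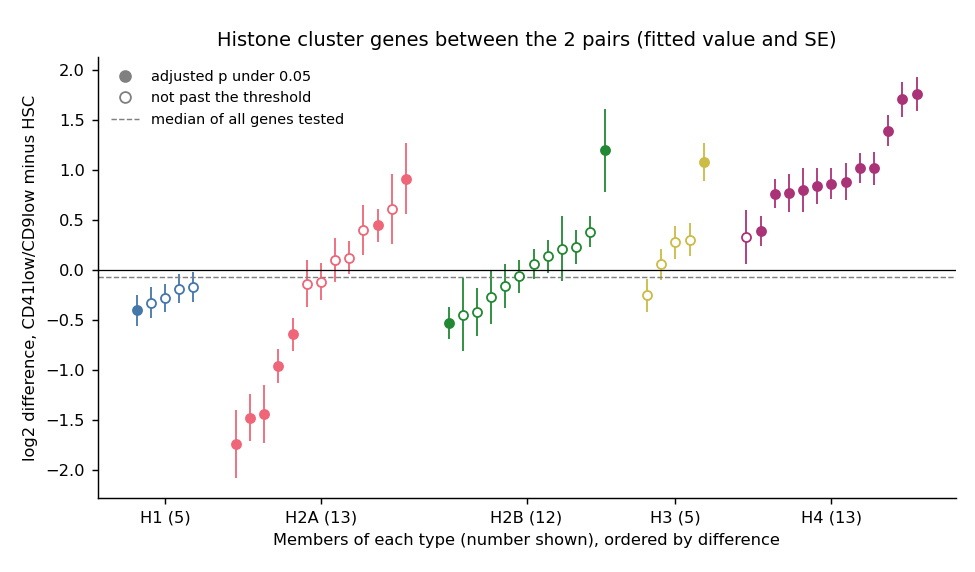
Fitted log2 difference between the CD41low/CD9low and the HSC pair (vertical axis, with SE) for 48 histone cluster genes by type, filled where the adjusted p is under 0.05, with the median of all genes tested as a dashed line. The 13 H4 genes all lie above 0, while H2A spans -1.74 to 0.91, and 4 tested genes with an SE of 1 or more are not drawn.

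The promoters were compared because the H4 genes stood together here. The window from 250 bases before to 50 after the annotated start was taken from RefSeq (GRCm38.p6) for 62 of the 67 genes, 12 of them H4. Searched on both strands, GTCCG, the core of the H4 promoter element bound by HINFP, was in 12 of 12 H4 windows, in 14 of the 50 windows of other types and in 23.4% of all 32851 RefSeq windows. The CCAAT box was in 50 of 50 windows of the other types but in 3 of 12 H4 windows, against 37.4% of all windows. The octamer ATTTGCAT, a binding site of the Oct proteins, was in 6 of 16 H2B and 7 of 18 H2A windows, in no H1, H3 or H4 window and in 1.74% of all windows. Many H2A and H2B genes lie in divergent pairs, so that some windows overlap. Others are not paired in this way, such as Hist3h2a and Hist3h2ba, which are on the same strand. The stretches below run 20 bases on each side of GTCCG, in capitals, in the direction of the gene and end before the annotated start. They are in falling order of the difference between the pairs, for 6 of the 12 genes. Hist1h4j, with the largest difference, is left out because the 20 bases after its match run past the annotated start.
Hist1h4k, chr13:21750560-21750604, minus strand: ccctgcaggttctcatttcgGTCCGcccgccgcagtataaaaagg
Hist1h4c, chr13:23698479-23698523, minus strand: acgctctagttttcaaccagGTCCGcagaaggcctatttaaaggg
Hist1h4f, chr13:23551689-23551733, minus strand: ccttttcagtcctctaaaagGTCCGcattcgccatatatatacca
Hist1h4d, chr13:23581502-23581546, plus strand: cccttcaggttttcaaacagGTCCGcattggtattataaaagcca
Hist4h4, chr6:136804438-136804482, minus strand: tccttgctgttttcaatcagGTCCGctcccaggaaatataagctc
Hist1h4m, chr13:21811680-21811724, plus strand: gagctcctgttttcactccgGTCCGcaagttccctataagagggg
Hist1h4m, which was not called, holds the same letters at the same distance as Hist1h4d, 46 bases before the start. Over other genes tested, 10.2% of the 4666 with GTCCG in a window and 9.59% of the 6697 without were called higher in the CD41low/CD9low pair. A match is a description of the letters.

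Other RNAs without a poly(A) tail were read in the same libraries. Of 8 such RNAs, 5 were called higher in the CD41low/CD9low pair by edgeR and by DESeq2, and 0 lower at the unadjusted p by either: the RNase P RNA Rpph1, the RNase MRP RNA Rmrp, the transcription regulator Rn7sk, the telomerase RNA Terc and the Cajal body RNA Scarna2. In the same edgeR comparison 9.11% of all genes tested were called higher. Rpph1 alone went from 3677 and 4090 CPM in WT and KO HSCs to 17655.6 and 16680.0 CPM in WT and KO CD41low/CD9low HSCs. Together the 8 RNAs took 11397.5 and 15325.8 CPM in the HSC libraries and 34928.8 and 33834.6 CPM in the CD41low/CD9low libraries, and their median log2 difference was 0.75, beside 0.86 for the H4 genes. The median of the histone genes other than H4 was -0.14. The part of this difference in the H4 result was not tested.

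In HSCs the KO-labelled library had 0.820 times the summed histone CPM of the WT library (95% counting interval 0.815 to 0.825). The ratio by type was 0.687 for H3, 0.792 for H2B, 0.793 for H1, 0.885 for H2A and 0.915 for H4. For H2A the direction turned when only genes with at least 50% of their 50-base words to themselves were summed (1.08). There was 1 library of each genotype and thus no test, and intervals are exact (Clopper-Pearson) and cover counting error only, since PCR reads without molecular identifiers are not independent molecules. For single genes, ratios were taken on median-of-ratios size factors of the pair. Of the 51 histone genes with at least 10 counts in a library, 42 had a KO/WT ratio below 1, beside 7952 of 15910 genes in all, and the median was 0.820. The interval lay below 1 for 38 and above 1 for 6, where it lay below 1 for 33.7% of all genes and above 1 for 35.6%. Few went past the fold limits of the study, 1 above 1.5 (Hist2h3c2, 43 counts in WT and 77 in KO) and 1 below 0.6 (Hist1h2br, 14 and 6 counts), beside 14.1% and 10.3% of all genes.

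The lowest ratios in HSCs among genes with at least 50 counts were 0.618 (0.564 to 0.676) for Hist1h4i (28.0 and 17.1 CPM), 0.631 (0.617 to 0.646) for Hist1h1a and 0.643 (0.595 to 0.695) for Hist1h2af (36.8 and 23.4 CPM). Hist1h3a at 0.644, Hist1h2bk at 0.658 and Hist1h3e at 0.665 lay close above them. The highest were 2.21 (1.503 to 3.29) for Hist2h3c2, 1.41 (1.35 to 1.47) for Hist1h2ac and 1.35 (1.24 to 1.48) for Hist2h2be (17.7 and 23.6 CPM). Hist1h4c at 1.26, Hist3h2a at 1.22 and Hist1h1e at 1.18 also had intervals above 1. These 6 genes all have an annotated 3′UTR of more than 300 bases, a class formed after their values were seen: of its 22 genes 17 passed the filter and 6 had intervals above 1, while of the 45 genes with a shorter 3′UTR 34 passed and none had an interval above 1. The class is not uniform, since Hist4h4, with 2515 bases of 3′UTR, had a ratio of 0.780 and Hist1h1d, with 4931 bases, 0.803. Among the 6, the exons of Hist3h2a, Hist1h1e and Hist1h2ac also overlap another gene annotated on the same strand. Those of Hist2h3c2, Hist2h2be and Hist1h4c do not. The part of such overlap in the ratios was not tested.

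Exon length went with the KO/WT ratio in HSCs over other genes as well. The median over other protein-coding genes was 0.801 for exons of up to 600 bases, 0.853 from there to 1000 bases, 0.876 to 2000 bases, 0.917 to 3000 bases, 0.972 to 5000 bases and 1.09 above. Histone genes of up to 600 bases had a median of 0.816, beside 0.801 for other genes of that length, and 24 of 25 were below 1, against 66.7% of 51 other genes. Those of 600 to 1000 bases had a median of 0.774, beside 0.853 for 232 other genes. Longer histone genes lay on both sides. The 6 of 1000 to 2000 bases had a median of 0.931, beside 0.876. The 5 of 2000 to 3000 bases had 1.22, beside 0.917, with 2 of 5 below 1. The 1 gene of 3000 to 5000 bases had 0.9265, beside 0.972, and the 1 above 5000 bases had 0.803, beside 1.09. In CD41low/CD9low HSCs the corresponding medians of other genes were flatter, at 0.9145, 0.977, 0.976, 0.993, 1.003 and 1.01, and the histone genes of up to 600 bases lay at 0.816. The part of exon length in the histone ratios was not tested.

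**Figure D3:**
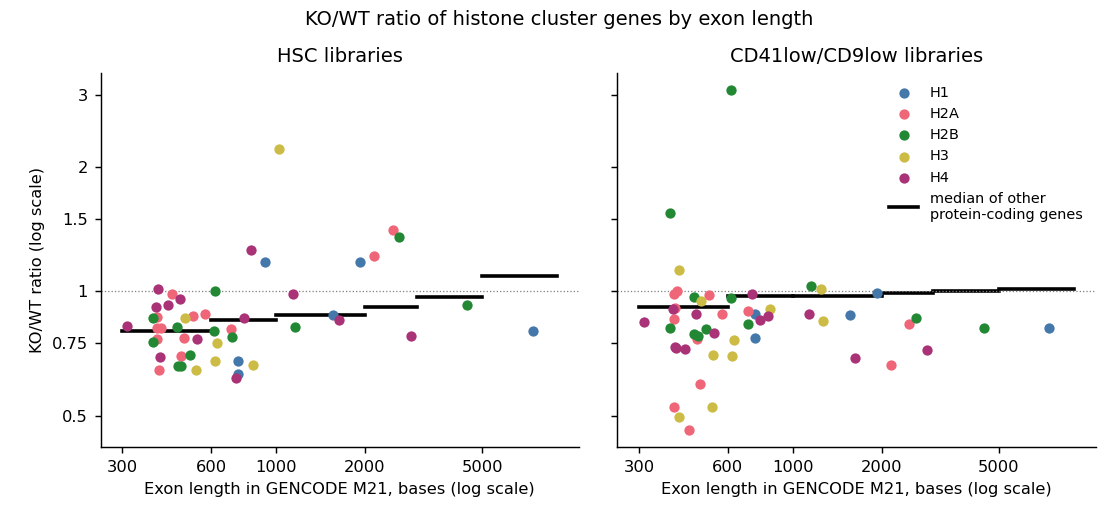
KO/WT ratio (log axis) against exon length in bases (log axis) for histone cluster genes with at least 50 counts over the pair, 50 in HSCs (left) and 53 in CD41low/CD9low HSCs (right), coloured by type. Black bars are medians of other protein-coding genes in 6 length classes: they climb from 0.801 to 1.09 in HSCs and from 0.9145 to 1.01 in CD41low/CD9low HSCs.

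In CD41low/CD9low HSCs the summed ratio of the KO-labelled to the WT library was 0.844 (0.836 to 0.852), over the 64 genes listed for this population. The types lay close together: 0.821 for H3, 0.825 for H2A, 0.839 for H4, 0.860 for H1 and 0.864 for H2B. The H3 ratio rests on 12 genes here (873 CPM in WT and 717 CPM in KO) and on 7 in HSCs. Those 7 genes summed to 544 CPM in WT and 439 CPM in KO CD41low/CD9low HSCs. All 13 H4 genes had a ratio below 1, from 0.688 (Hist2h4) to 0.984 (Hist1h4i), and 12 of the intervals lay below 1. Over all types, 56 genes passed the filter, 47 had a ratio below 1, beside 7268 of 14844 genes in all, and the median was 0.853, where the median of all genes was 1.01. The interval lay below 1 for 35 and above 1 for 5, where it lay below 1 for 30.4% of all genes and above 1 for 31.1%. Ratios above 1.5 were found for 5 histone genes and below 0.6 for 5, beside 13.5% and 12.0% of all genes. Of the 5 above, only Hist3h2ba and Hist1h2bl had 50 counts or more in a library, and the other 3 (Hist1h1t, Hist2h2aa1 and Hist1h2br) had 0 counts in WT and 10 to 13 in KO.

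The lowest ratios in this population were 0.461 (0.374 to 0.567) for Hist2h2ab (18.1 and 8.31 CPM), 0.497 (0.383 to 0.641) for Hist1h3h (11.4 and 5.65 CPM) and 0.524 (0.441 to 0.623) for Hist1h3g (23.9 and 12.5 CPM). The H2A copies Hist1h2an (0.525) and Hist1h2ag (0.598) were also below 0.6. The highest were 3.08 (2.39 to 4.02) for Hist3h2ba, 1.55 (1.19 to 2.05) for Hist1h2bl (6.205 and 9.62 CPM) and 1.13 (0.928 to 1.38) for Hist1h3i, whose interval spans 1. Hist1h2bl and Hist1h3i have 17.2% and 12.4% of their 50-base words to themselves. Of the genes high in KO HSCs, Hist1h2ac had 0.8315 here, Hist2h2be 0.8615, Hist3h2a 0.662, Hist1h4c 0.870 and Hist1h1e 0.993, and Hist2h3c2 had under 10 counts in each library.

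Set side by side for the 48 genes with at least 50 counts over each pair, 37 were below 1 in both populations and none was above 1 in both. Over these 48 genes, which come from the same 4 libraries, Pearson's r of the log2 ratios was 0.02 and Spearman's rho 0.16, as a description. H3 illustrates the genes that were low in both, with 0.644 and 0.701 for Hist1h3a, 0.678 and 0.698 for Hist1h3b and 0.751 and 0.763 for Hist1h3c (HSCs first, then CD41low/CD9low HSCs). Hist1h4i, in contrast, had the lowest of these ratios in HSCs and 0.984 in the other population.

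**Figure D4:**
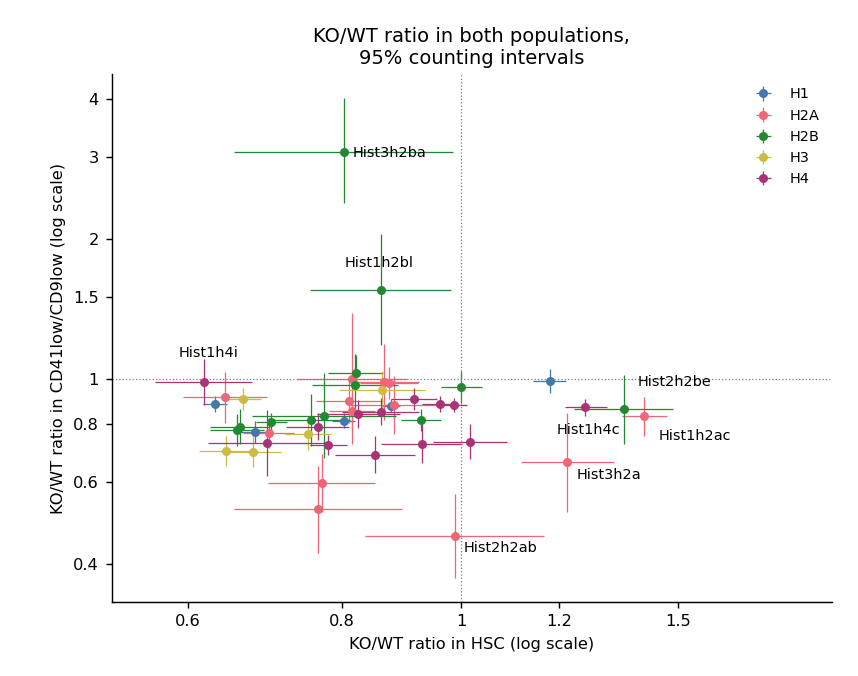
KO/WT ratio in HSCs (horizontal log axis) against that in CD41low/CD9low HSCs (vertical log axis) for 48 histone cluster genes coloured by type, with exact 95% counting intervals. Most genes, 37 of 48, lie below 1 on both axes, Hist3h2ba and Hist1h2bl lie high on the vertical axis, and Hist1h2ac, Hist2h2be, Hist3h2a and Hist1h4c lie to the right of 1.

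A genotype effect common to both populations was tested in the same edgeR quasi-likelihood fit. Hist1h3a, lower by a log2 difference of -0.58 (adjusted p = 0.020), and Hist1h3b, lower by -0.55 (adjusted p = 0.040), passed the threshold, where 1.19% of all genes were called lower and 1.62% higher. Hist1h3b had 77.8 and 52 CPM in WT and KO HSCs and 98.1 and 68.4 CPM in WT and KO CD41low/CD9low HSCs. Both calls were lost with DESeq2 (adjusted p = 0.23 and 0.37), with DESeq2 size factors (0.061 and 0.090) and with a minimum of 50 counts (0.11 and 0.14). No histone gene was called higher, at the unadjusted p under 0.05 either, by edgeR or DESeq2, whereas 15 of 52 were lower at the unadjusted p by edgeR and 12 by DESeq2. Of all genes tested, 4.93% were lower and 5.85% higher at the unadjusted p by edgeR, and 2.56% and 3.45% by DESeq2. The median log2 difference was -0.24 over the 52 genes and 0.0035 over all genes tested, and 42 of 52 were negative. All 8 granulocyte markers were called lower in the same edgeR fit, and 0 by DESeq2 with 2 lower at the unadjusted p. Yet only 1 of the 8 had a KO/WT ratio below 1 in HSCs (median 1.25), against all 8 in CD41low/CD9low HSCs (median 0.206). A genotype call in this fit therefore does not show a change in both populations. The part of these markers in the histone values was not tested. The 4 genes that the study lists as targets of Gfi1b and β-catenin, Hist1h1a, Hist1h1b, Hist1h2ak and Hist1h2bn, had log2 differences of -0.43, -0.48, -0.27 and -0.36, with adjusted p from 0.059 to 0.64, and each had a lower CPM in the KO-labelled library of both populations. None of the 4 passed the limits of 1.5 or 0.6 in either population. How far these samples entered the choice of that list is not given in the sources used here, so it is no independent evidence of direction.

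Genes that act on the histone genes or their products were taken from lists. Of 17 measured genes of histone mRNA 3′ end formation and its control, edgeR and DESeq2 called 0 between the genotypes, with 2 lower at the unadjusted p by edgeR and 0 by DESeq2. Slbp, the hairpin binding protein, had 115 and 92.2 CPM in WT and KO HSCs and 121 and 107 CPM in WT and KO CD41low/CD9low HSCs, and its difference between the pairs was 0.08 (adjusted p = 0.80). Between the pairs, edgeR called 1 gene of this list higher and 5 lower, and DESeq2 called 0 higher, with 1 at the unadjusted p, and 4 lower. Of all genes tested, edgeR called 9.11% higher and 13.7% lower. Npat, the coactivator that cyclin E-Cdk2 acts on at histone genes, was at 87.55 and 103.5 CPM in HSCs and 43.2 and 55.9 CPM in CD41low/CD9low HSCs (-1.015, adjusted p = 6.1e-08). Hinfp, whose protein binds the H4 promoter element, had 26.7 and 28.8 CPM in WT and KO HSCs. In WT and KO CD41low/CD9low HSCs it had 34.5 and 43.25 CPM, and it was not called (0.415, adjusted p = 0.16). The part of either gene in the H4 values was not tested. Casp8ap2, which with Npat marks histone locus bodies, was lower by -0.79 (adjusted p = 1.5e-05), Cstf2, shared with general 3′ end processing, by -0.62 (adjusted p = 0.00087), Eri1, an exonuclease that acts on the hairpin, by -0.49 (adjusted p = 0.013) and the nuclease partner Cpsf2 by -0.41 (adjusted p = 0.033). Srrt, which links the cap to processing, was higher by 0.39 (adjusted p = 0.044). The calls of Cpsf2 and Srrt were lost with DESeq2 (adjusted p = 0.056 and 0.061).

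The 11 replacement histones have polyadenylated mRNAs, most of them made outside S phase too. Their median KO/WT ratio was 0.8 in HSCs and 1.06 for the second population, beside 0.820 and 0.853 for the cluster genes. EdgeR and DESeq2 called 0 of them between the genotypes, with 3 lower and 1 higher at the unadjusted p by edgeR and 3 lower by DESeq2. H2afz had 186, 147, 159.6 and 159 CPM, and H3f3b had 972, 993, 689.7 and 825 CPM, with a difference between the pairs of -0.44 (adjusted p = 0.0090). H2afx, which has both polyadenylated and hairpin forms, was higher between the pairs by 0.41 (adjusted p = 0.048), and Cenpa, the centromeric H3, was lower by -0.71 (adjusted p = 0.0040), as was the linker histone H1f0 by -0.45 (adjusted p = 0.019). The calls of H2afx and Cenpa were lost with DESeq2 (adjusted p = 0.13 and 0.084), which called 2 lower and 0 higher, with 2 higher at the unadjusted p.

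Of 12 histone chaperones, which carry histones to DNA, 0 were called between the genotypes by edgeR or DESeq2 (3 lower at the unadjusted p by edgeR and 0 by DESeq2). In the CD41low/CD9low pair 5 were lower and none higher, where edgeR called 13.7% of all genes tested lower and 9.11% higher. The 5 were Hira, for replication-independent H3 (-1.88, adjusted p = 8.4e-20), its partner Ubn1 (-0.41, adjusted p = 0.032), Atrx (-0.67, adjusted p = 3.8e-05), and the H3-H4 chaperones Asf1a (-0.72, adjusted p = 0.0069) and Asf1b (-0.73, adjusted p = 0.029). DESeq2 called 3 chaperones lower and 0 higher, with 0 higher at the unadjusted p by either tool, and lost Asf1a and Asf1b (adjusted p = 0.090 and 0.15).

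The 20 S phase genes had a lower CPM in the KO-labelled libraries almost throughout. Their median KO/WT ratio was 0.780 in HSCs, with 18 of 20 below 1, and 0.768 in CD41low/CD9low HSCs, with 19 of 20 below 1. Of these, 3 passed the threshold in the genotype fit, all lower: the replication clamp Pcna by -0.50 (adjusted p = 0.037), cyclin A2 (Ccna2) by -0.60 (adjusted p = 0.014) and the helicase factor Cdc45 by -0.67 (adjusted p = 0.042). DESeq2 called 0 of the 20, with 8 lower and 0 higher at the unadjusted p, against 9 and 0 by edgeR. Pcna had 209 and 152 CPM in WT and KO HSCs and 222 and 151 CPM in WT and KO CD41low/CD9low HSCs. Between the pairs 1 of the 20, Mcm7, was higher (0.46, adjusted p = 0.013), and 5 were lower, Mcm4, Pola1, Prim1, Ccna2 and Ccne2, of which DESeq2 lost Prim1 (adjusted p = 0.13). By edgeR, 9.11% of all genes tested were called higher and 13.7% lower. The median difference of the list was -0.18, beside 0.86 for the H4 genes.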

How the data were processed

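RNA-seq libraries of 4 groups, 1 per group, were deposited as raw counts per Ensembl gene. Per the labels, the authors aligned the reads to mm10 with TopHat2 2.0.10 and used SAMtools, HTSeq and DESeq, while HTSeq settings, annotation release and read length are not given in the sources used here. Deposited counts were used unchanged, without the closing lines of unassigned reads (60.12 to 105.3 reads in no gene per 100 gene counts), and 3 counts correspond to 0.0591 to 0.236 CPM. Symbols, exons and transcripts came from GENCODE M21.

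Differences were tested with edgeR 4.0.16 (quasi-likelihood, TMM, population and genotype as terms, at least 10 counts in 1 library, Benjamini-Hochberg over 16262 genes, threshold 0.05, common biological coefficient of variation 0.266). In simulated counts with 200 genes changed 3-fold and a coefficient of 0.2, below that of the data, it recovered 77.5% between pairs (15564 genes) and 80.5% between genotypes (15544 genes). Within populations, ratios used median-of-ratios size factors, with 1.5 and 0.6 as limits. DESeq2 1.42.0 was an alternative. Nothing says that cells of a genotype came from more than 1 pool, so p-values measure the spread between these libraries. That spread was pooled over genes: beside 1 residual degree of freedom, the fit took its prior degrees of freedom as infinite. Disagreement between the libraries of a single gene thus did not enter its own p-value.

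Members and lists were chosen with earlier results of these data known. The text names, per type, the 3 members highest per kilobase, the 3 highest and 3 lowest KO/WT ratios of each population, the 5 largest calls in each direction between pairs, the 4 target-list members, and Gfi1b, Slbp, Npat, H2afz, H3f3b and list genes called by a fit. Hist1h2ag, Hist1h2an, Hist1h3b, Hist1h3f, Hist1h1d, Hist1h1e, Hist1h1t, Hist1h2br, Hist2h2aa1, Hist2h4, Hist4h4, Hist1h4m and Hinfp, and the 3′UTR class of 300 bases, were added after values were seen.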

Additional observations from a re-analysis of the deposited data

Results flagged for a closer look

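For 5 histone genes the KO/WT ratio lay on opposite sides of 1 in the 2 populations, with both counting intervals excluding 1. The difference itself was not tested, since each ratio rests on 1 library of each genotype. Subtracting the log2 ratio of HSCs from that of the CD41low/CD9low population gave -0.76 for Hist1h2ac, -0.54 for Hist1h4c and -0.88 for Hist3h2a, which were higher in the KO-labelled library only in HSCs. The result was 0.85 for Hist1h2bl and 1.94 for Hist3h2ba, which were higher in the KO-labelled library only in CD41low/CD9low HSCs.

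Histone pseudogenes, which no comparison used, also had counts. Hist3h2bb-ps reached 286 counts in WT HSCs, and Hist1h2al reached 230 counts in KO CD41low/CD9low HSCs against 3 in KO HSCs.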

How the results depend on the processing

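Between the pairs, 12 to 17 histone genes were higher and 6 or 7 lower under the other scalings, filters and DESeq2. Another alternative, added after the data were seen, took only members with at least 50% of their 50-base words to themselves (35 of 67). Of these, 29 were tested, against 52 in the main fit, and 12 were higher and 4 lower. The genotype calls, 2 lower, became 0 with DESeq2 size factors, 0 with a minimum of 50 counts, 0 with DESeq2 and 1 with such members only. For these 3 counts of 0, 15, 15 and 12 histone genes were lower at the unadjusted p under 0.05. In HSCs the 1 gene below 0.6 became 0 with a minimum of 50 counts, 3 with no filter and a pseudocount of 1, and 8 with a limit of 0.667, and with members of own words 0 were above 1.5 and 0 below 0.6. In CD41low/CD9low HSCs the 5 above 1.5 became 2 with a minimum of 50 counts, and with members of own words 2 were above 1.5 and 1 below 0.6.

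The summed KO/WT ratio in HSCs was 0.8421 without the 5 members with the most counts and 0.8419 for members of own words, which gave 0.8527 in CD41low/CD9low HSCs. The summed ratio of CD41low/CD9low to HSC in WT was 1.18, and 1.127 on size factors, 1.116 with TMM, 1.296 without those 5 members and 1.192 for members of own words. In KO it was 1.21, and 1.162, 1.15 and 1.288 in the first 3 of these settings. For H2B in WT it turned from 1.02 to 0.978 on size factors, 0.969 with TMM and 0.951 for single-exon members, and the H2A ratio of KO to WT in HSCs turned from 0.885 to 1.08 for members of own words.

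A count limited to words unique in the genome was not run, since no genome sequence was used here. No paired analysis was possible because each group had 1 library and no replicate number pairs libraries beyond the population and genotype terms of the fit. With 1 library omitted, that fit would have 0 residual degrees of freedom. Depth limits members under 10 counts.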
